A study of Rattus norvegicus with 15 samples.

Results

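The microRNAs (miRNAs) described here are the guide strands of the miR-99, miR-100 and miR-125 families in rat liver. A miRNA guide strand is the arm of a short hairpin RNA that is loaded into the silencing complex, and the other arm is its opposite strand. The members are miR-99a, miR-99b, miR-100, miR-125a-5p and miR-125b-5p, chosen by name, and they are 5 of the 350 rat miRNAs on the array. Liver RNA was measured on 15 single-colour Agilent arrays, each loaded with RNA pooled from 4 rats. The rats had eaten an ethanol diet for a long period (EtOH) or a carbohydrate diet in amounts matched to them (CHO). Liver was taken at the moment of partial hepatectomy (PHx), the surgical removal of part of the liver after which the remainder regrows, or 1, 6, 12 or 24 h later. There were 3 EtOH and 4 CHO pools before PHx, and 1 pool for each diet at each of the 4 times after it. Every animal of the study had the surgery, so the groups have no sham control, and strain, sex and age of the rats are not stated in the labels. For 7 of the 8 pools the arrays before and after PHx come from the same 4 animals. Because liver is a mixed tissue, fewer cells of a type and less RNA per cell cannot be told apart in any value below.

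A miRNA recognises its targets mainly through its seed, the stretch near its 5′ end. The miR-99 and miR-100 family is known for repressing the growth kinase mTOR and the insulin-like growth factor 1 receptor. The miR-125 family, the mammalian relatives of the worm timing gene lin-4, is known for repressing the RNA-binding protein Lin28 and regulators of the p53 pathway. Both families are encoded in conserved clusters with members of the let-7 family, which is associated with differentiated cells. MiR-100, miR-125b and miR-99a are often abundant in fibroblast-like and stellate cells.

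The sequences show why the members fall into families by seed but into other sets by genome position. Of the 5 members, 4 matched a mature sequence in RefSeq (build GRCr8), and these are printed 5′ to 3′ with the seed, bases 2 to 8, in capitals. MiR-99b-5p lies at chr1:67350070-67350091, miR-100-5p at chr8:50798307-50798328, miR-125a-5p at chr1:67350689-67350712 and miR-125b-5p, here from the Mir125b2 gene, at chr11:29732588-29732609, all on the plus strand. MiR-99a is not printed.
miR-99b-5p: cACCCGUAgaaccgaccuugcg
miR-100-5p: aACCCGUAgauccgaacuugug
miR-125a-5p: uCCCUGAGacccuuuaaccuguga
miR-125b-5p: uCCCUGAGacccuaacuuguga
MiR-99b-5p and miR-100-5p share the seed ACCCGUA and are identical at 18 of 22 bases. They differ by C1A, A11U, C16A and C21U, counted from the 5′ end with the miR-99b-5p base first. MiR-125a-5p and miR-125b-5p share the seed CCCUGAG and their first 13 bases, and are identical at 21 of 24 alignment columns.

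In GRCr8 the genes form 3 clusters, each with a miR-99 or miR-100 gene first, a let-7 gene in the middle and a miR-125 gene last, all on the plus strand. The chromosome 1 cluster of Mir99b, Mirlet7e and Mir125a spans 696 bases and overlaps the protein-coding gene Spaca6. The chromosome 8 cluster of Mir100, Mirlet7a-2 and Mir125b1 spans 51828 bases and overlaps Mir100hgl and the long non-coding RNA Lnc215. The chromosome 11 cluster of Mir99a, Mirlet7c1 and Mir125b2 spans 45257 bases and overlaps the long non-coding RNA LOC103693508. A mature miR-125b-5p can therefore come from 2 genes, on chromosomes 8 and 11, and the array does not tell them apart. Of the let-7 partners, let-7e has 1 gene, whereas let-7a and let-7c each have 2 genes in the table, of which 1 lies in a cluster. The let-7e partner is printed because its values are set beside those of its cluster mates, with the seed in capitals, at chr1:67350243-67350264.
let-7e-5p: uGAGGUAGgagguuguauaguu

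Each array held 7000 non-control spots, and between 108 and 131 miRNAs were detected per array. Signals were scaled to each array's 75th percentile over 185 probes detected on all arrays, and levels are log2 of this scaled signal, with a floor at 3.26. The third EtOH pool before PHx stood apart: its percentile before scaling was the lowest, at 236.5 against a highest of 515.5, and its median spot-to-spot coefficient of variation was 34.0% against 7.77% to 9.09% on the other arrays. The CHO array at 12 h was the most distant from the rest: its best correlation with any other array, across miRNAs, was 0.978. The hepatocyte miRNA miR-122 was detected on 15 of 15 arrays, with scaled signals from 33467 to 44009. MiR-100, miR-99a, miR-125a-5p and miR-125b-5p were detected on 15 of 15 arrays. MiR-99b was detected on 11 of 15 and lay close to the floor on all of them, so its values have little room to fall. All 5 members were among the 134 miRNAs tested, those detected on at least 3 arrays.

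Before surgery, ethanol-fed livers held less miR-100, miR-125b-5p and miR-99a than pair-fed livers, by 0.39 to 0.44 on the log2 scale. These are the members encoded on chromosomes 8 and 11. The chromosome 1 members miR-99b and miR-125a-5p did not pass the test, with differences of -0.05 and -0.12. Without scaling of the arrays, where the median of all tested miRNAs was -0.53, miR-125a-5p also passed, at -0.65 (adjusted p = 0.0146 in limma with Benjamini-Hochberg adjustment). Of the 5 members, 3 were lower at an adjusted p under 0.05 in limma with Benjamini-Hochberg adjustment over all tested miRNAs, and 0 were higher. Among all tested miRNAs, 12.7% were called lower and 15.7% were called in either direction. The median difference of the members was -0.39, against -0.08 over all tested miRNAs.

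MiR-99a, the miR-99 family member of chromosome 11, had log2 levels of 8.60, 8.70 and 8.23 in the 3 EtOH pools before PHx. The 4 CHO pools had 8.89, 8.97, 8.89 and 9.05. Every EtOH pool was below every CHO pool, and the lowest value was that of the third EtOH pool, the array that stood apart. The EtOH mean was 368 ± 59.9 (SD, n = 3) and the CHO mean 495 ± 26.7 (SD, n = 4), in scaled signal. The difference was -0.44 (SE 0.104, limma with Benjamini-Hochberg adjusted p = 0.0152). Without the third EtOH pool it was -0.30 and still passed (adjusted p = 0.0197 in limma with Benjamini-Hochberg adjustment).

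MiR-100, the seed mate of miR-99b encoded on chromosome 8, stood at 6.84, 6.99 and 6.88 in EtOH. In CHO it stood at 7.11, 7.18, 7.41 and 7.46. The EtOH pools lay close together and below all CHO pools, whose own spread was wider. The means were 120 ± 6.39 (SD, n = 3) and 157 ± 18.6 (SD, n = 4) in scaled signal. The difference was -0.39 (SE 0.0952, limma with Benjamini-Hochberg adjusted p = 0.0167). Leaving out the first EtOH pool ended this call, at -0.36 with an adjusted p of 0.0537 in limma with Benjamini-Hochberg adjustment.

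MiR-125b-5p, which ends the clusters of both chromosomes, stood at 9.43, 9.56 and 9.28 in EtOH and at 9.74, 9.76, 9.94 and 9.82 in CHO. Again the groups did not overlap, and the third EtOH pool was lowest. The means were 689 ± 68.4 (SD, n = 3) against 903 ± 54.9 (SD, n = 4) in scaled signal. The difference was -0.39 (SE 0.0849, limma with Benjamini-Hochberg adjusted p = 0.0152). Groups that did not overlap, with EtOH below CHO, were seen for 21.6% of the tested miRNAs before PHx, so the separation alone is common in these arrays.

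MiR-125a-5p, which has the seed of miR-125b-5p but lies on chromosome 1, stood at 5.53, 5.79 and 5.92 in EtOH. The CHO pools had 5.81, 5.87, 6.02 and 5.77. The groups overlapped, and here the third EtOH pool was the highest of its diet. The difference was -0.12 (95% interval -0.35 to 0.11, limma with Benjamini-Hochberg adjusted p = 0.459). Without the third EtOH pool it was -0.21, which did not pass either. MiR-99b stood at 3.26, 3.40 and 3.75 in EtOH and 3.54, 3.45, 3.85 and 3.26 in CHO, where 3.26 is the floor. It was detected on 1 of the 3 EtOH arrays and 3 of the 4 CHO arrays, and its groups overlapped throughout. Its difference was -0.05 (95% interval -0.37 to 0.26, limma with Benjamini-Hochberg adjusted p = 0.873). The number of arrays limits the precision: both intervals reach down to about the size seen for the 3 called members.

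**Figure D1:**
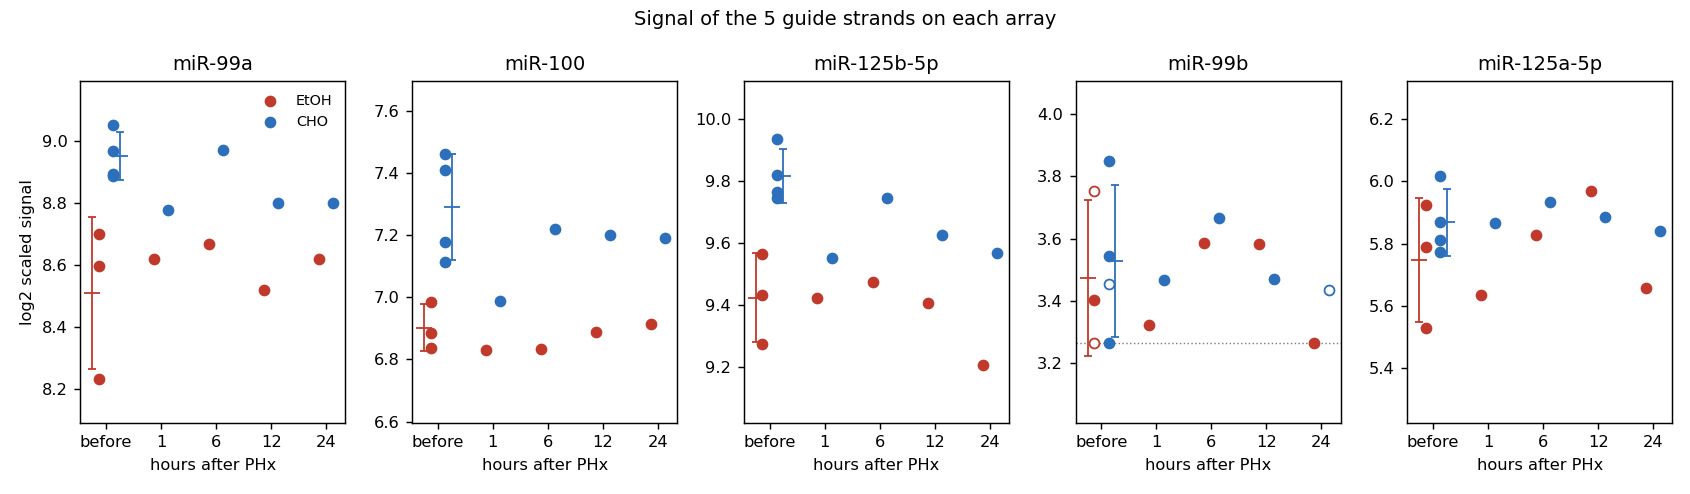
Log2 scaled signal of the 5 guide strands (vertical axis, the same span in each panel) before PHx and at 1, 6, 12 and 24 h after it. Each point is 1 array of pooled RNA, red for EtOH and blue for CHO; open points mark arrays where the miRNA was not detected, bars give the mean and SD before PHx, and the dotted line is the floor. For miR-100, miR-125b-5p and miR-99a every red point before PHx lies below every blue one, whereas for miR-99b and miR-125a-5p the colours mix.

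Whether the miR-125 guide strands parted was tested within arrays, where the ratio of miR-125b-5p to miR-125a-5p does not depend on the array scaling. Before PHx this log2 ratio was 0.27 lower in EtOH on average, with EtOH values from 3.35 to 3.90 and CHO values from 3.89 to 4.05. The ranges overlapped narrowly, and an exact two-sided permutation test gave p = 0.114, where 0.0571 is the smallest p that 3 against 4 arrays allow. After PHx the ratio differed by -0.14 (exact two-sided permutation p = 0.171, smallest possible 0.0286). Before PHx the test could not reach 0.05 whatever the values, so it settles nothing there about a difference between these strands. The ratio of miR-99a to miR-99b is not given, because miR-99b lay at the floor or was not detected on several arrays. The log2 ratio of miR-99a to miR-100 differed by -0.05 before and 0.05 after PHx (exact two-sided permutation p = 0.629 and p = 0.457). These p values are not adjusted.

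Each member has a second probe on the array, which was not used for the levels above. The second probes of miR-99a, miR-125b-5p and miR-100 differed by -0.30, -0.24 and -0.17 before PHx, the same sign as the probe used. For miR-99a and miR-125b-5p the second probe was detected on all 15 arrays, and the EtOH range lay below the CHO range, at 8.29 to 8.48 against 8.58 to 8.83 and at 8.16 to 8.31 against 8.39 to 8.55. The 2 probes of miR-99a disagreed on the third EtOH pool: it was the lowest on the used probe, at 8.23, but not on the second, at 8.44. The second probe of miR-100 read highest of the EtOH pools there, at 4.42, and its difference was -0.35 without that pool. The second probe of miR-125a-5p gave -0.24, further from 0 than the -0.12 of the probe used and the same as the second probe of miR-125b-5p, and that of miR-99b was detected on 0 of 15 arrays. With the probes of each miRNA averaged, miR-99a (-0.37) and miR-125b-5p (-0.32) passed, and miR-100 (-0.28) did not.

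After surgery the same 3 members lay below the pair-fed level on the scale used here, but by amounts that did not pass over all tested miRNAs. With the 75th percentile taken over all probes, miR-99a (0.02) and miR-125b-5p (0.0059) turned sign, with the median of all tested miRNAs at 0.19, and miR-100 stood at -0.03. The diet difference over the 4 times was -0.28 for miR-100, -0.24 for miR-125b-5p and -0.23 for miR-99a. Limma with Benjamini-Hochberg adjustment called 0 of the 5 members, against 7.46% of all tested miRNAs, and the adjusted p values were 0.0631, 0.0656 and 0.141. Before adjustment these 3 members had p under 0.05, as had 41 of the 134 tested miRNAs. Without the third EtOH pool before PHx, which enters this fit but not this difference, all 3 passed with 33 of all tested miRNAs, with adjusted p from 0.0271 to 0.0431 in limma with Benjamini-Hochberg adjustment.

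At 1, 6, 12 and 24 h miR-99a stood at 8.62, 8.67, 8.52 and 8.62 in EtOH and at 8.78, 8.97, 8.80 and 8.80 in CHO. MiR-100 stood at 6.83, 6.83, 6.89 and 6.91 in EtOH and at 6.99, 7.22, 7.20 and 7.19 in CHO. MiR-125b-5p stood at 9.42, 9.47, 9.41 and 9.21 in EtOH and at 9.55, 9.74, 9.62 and 9.57 in CHO. For each of these 3, all 4 EtOH pools lay below all 4 CHO pools, which was so for 8.96% of the tested miRNAs. Over all 7 EtOH and 8 CHO arrays, before and after PHx together, miR-99a and miR-100 still separated completely. That was so for 4 of 134 tested miRNAs, or 2.99%, of which the others were miR-450a and miR-664, named after their values were seen. For miR-100 the gap was narrow, from 6.986 as the highest EtOH value to 6.987 as the lowest CHO value. MiR-125b-5p overlapped slightly, with 9.564 as its highest EtOH value and 9.552 as its lowest CHO value.

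The chromosome 1 members mixed after surgery as well. MiR-125a-5p stood at 5.63, 5.83, 5.97 and 5.66 in EtOH and at 5.87, 5.93, 5.89 and 5.84 in CHO. At 12 h its EtOH pool was the highest of all. MiR-99b stood at 3.32, 3.59, 3.58 and 3.26 against 3.47, 3.67, 3.47 and 3.43, again with the EtOH pool higher at 12 h. Their diet differences after PHx were -0.11 and -0.07, with adjusted p of 0.495 and 0.733 in limma with Benjamini-Hochberg adjustment.

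Each EtOH pool was also set beside the CHO pool of the same time, and the pools before PHx beside each other by the later time their labels give. The labels do not say which pools were fed as pairs. Before PHx the EtOH pool was the lower in 3 of 3 sets for all 5 members. For miR-99b each of these sets held an array on which it was not detected. The sets differed by -0.65 to -0.27 for miR-99a, by -0.53 to -0.19 for miR-100 and by -0.66 to -0.20 for miR-125b-5p, and the largest difference was always that of the 12 h set, which holds the array that stood apart. After PHx the EtOH pool was lower in 4 of 4 sets for miR-100, miR-125b-5p and miR-99a and in 3 of 4 sets for miR-99b and miR-125a-5p. The share of all tested miRNAs that were lower in every set is not given. Their median diet difference was itself below 0, at -0.08 before and -0.05 after PHx, so these counts alone are not particular to the members. With the set as a block the 3 calls before PHx were kept, at -0.33, -0.39 and -0.41 for miR-100, miR-125b-5p and miR-99a. These differences rest on 3 sets, since the 24 h set has no EtOH array before PHx and its CHO array adds nothing to them.

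The diet differences after and before PHx were compared directly in the same fit. The difference between them was 0.21 for miR-99a, 0.15 for miR-125b-5p and 0.11 for miR-100, that is, towards a smaller gap after surgery, and 0.01 and -0.02 for miR-125a-5p and miR-99b. Limma with Benjamini-Hochberg adjustment called none of them, with adjusted p from 0.841 to 0.986. Among all tested miRNAs 0% were called, and 9 of 134 had an unadjusted p under 0.05. A change of the diet difference with surgery was thus not shown for any member.

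**Figure D2:**
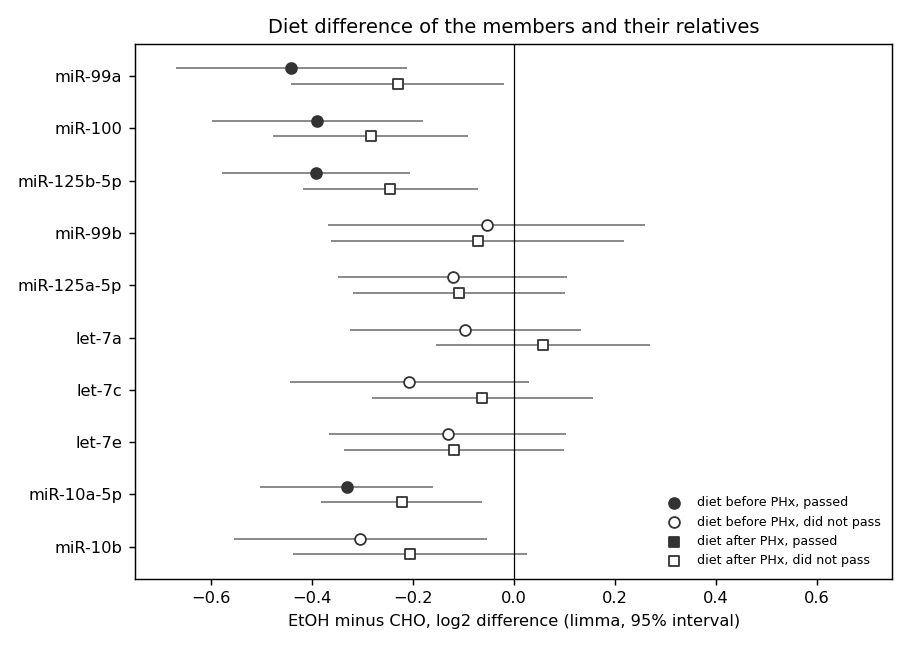
EtOH minus CHO log2 difference of the 5 guide strands, their let-7 partners and the miR-10 relatives, before PHx (circles) and after PHx (squares), with 95% intervals from limma; filled marks had an adjusted p under 0.05. MiR-10a-5p, miR-100, miR-125b-5p and miR-99a are filled before PHx, and no mark is filled after it.

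No member changed with time after surgery by the test used. Averaged over both diets and relative to before PHx, 0 of the 5 members were called at 1, 6, 12 or 24 h or for the mean of the times. Limma with Benjamini-Hochberg adjustment called 0%, 4.48%, 5.97% and 13.4% of all tested miRNAs at these times and 6.72% for the mean, and at 1 h 4 of 134 had an unadjusted p under 0.05. Only miR-125b-5p at 24 h had an unadjusted p under 0.05 among the members. It stood 0.23 below its level before PHx on the log2 scale (SE 0.0894, adjusted p = 0.145 in limma with Benjamini-Hochberg adjustment). Without the third EtOH pool before PHx this value was -0.27 and passed, with an adjusted p of 0.0387 in the same test, and with no filter on low signals it also passed. The largest other time difference among the members was that of miR-100 at 1 h, at -0.19 (adjusted p = 0.925 in limma with Benjamini-Hochberg adjustment).

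Because most pools were measured before and after PHx in the same animals, the change can be read within a pool. MiR-125b-5p was lower after surgery in 4 of 4 CHO pools, by -0.19, -0.02, -0.31 and -0.25 at 1, 6, 12 and 24 h. In the EtOH pools it changed by -0.01, -0.09 and 0.13 at 1, 6 and 12 h. MiR-100 was lower after surgery in 3 of 4 CHO pools (-0.27 to 0.04) and moved between -0.15 and 0.01 in the 3 EtOH pools. MiR-99a was lower in 3 of 4 CHO pools (-0.25 to 0.0037) and rose by 0.29 in the EtOH 12 h pool, whose array before PHx is the one that stood apart. MiR-125a-5p moved by at most 0.13 in any pool and was higher after surgery in 3 of 3 EtOH and 3 of 4 CHO pools. The median change of all tested miRNAs had the same sign as that of miR-125a-5p in each pool. It was 0.02, 0.09 and 0.09 in the EtOH pools at 1, 6 and 12 h. In the CHO pools it was 0.0057, 0.06, -0.06 and 0.06 at 1, 6, 12 and 24 h. MiR-99b moved in both directions in both diets, between -0.38 and 0.21. A block for the pool called no member at any time or for their mean.

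**Figure D3:**
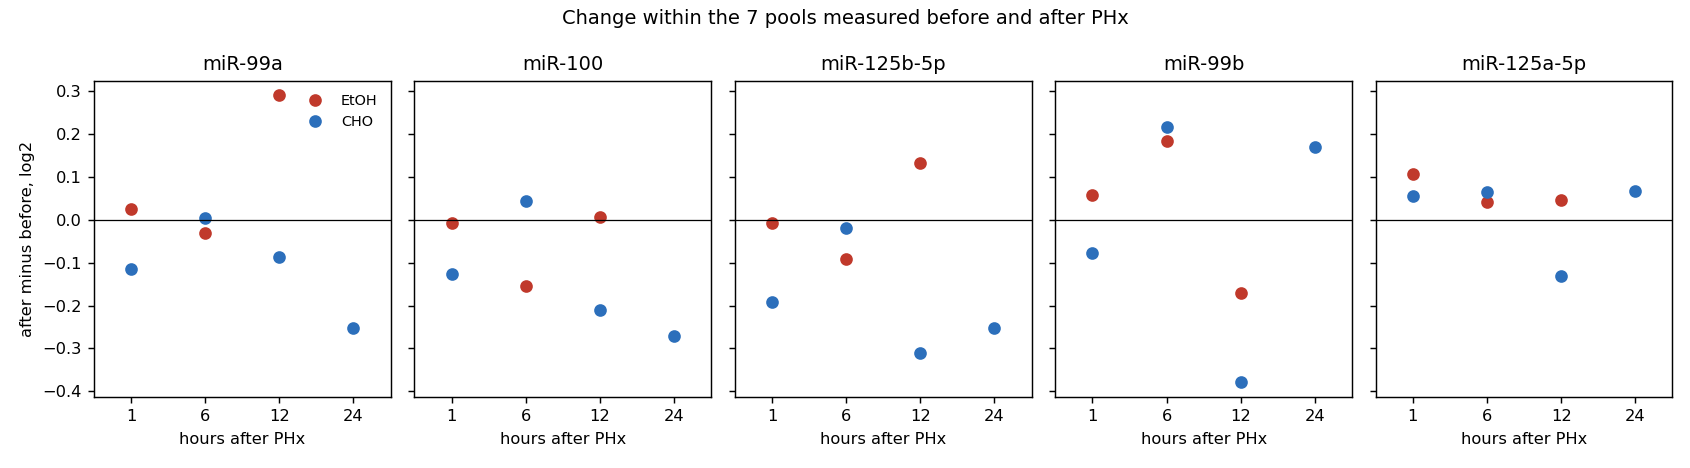
Log2 level after PHx minus the level of the same animals before PHx, by hours after PHx, for the 3 EtOH (red) and 4 CHO (blue) pools measured on both occasions. The blue points of miR-125b-5p all lie below 0, from -0.31 to -0.02, whereas its red points lie between -0.09 and 0.13.

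Correlations of the levels were set out by cluster, with the chromosome 1 members apart from the others. Across the 15 arrays miR-99b and miR-125a-5p, which are neighbours on chromosome 1 with different seeds, had a Pearson r of 0.83. MiR-99b was detected on 11 of 15 arrays and ranged only from 3.26, the floor, to 3.85. All r values of miR-99b, here and below, thus rest on signals close to the floor. MiR-100, miR-125b-5p and miR-99a had pairwise r from 0.79 to 0.86. Across these sets r lay between -0.11 and 0.44. This includes the seed mates among the printed sequences, miR-125a-5p and miR-125b-5p (0.43) and miR-99b and miR-100 (0.19). MiR-99a, whose sequence is not printed, was not paired by seed here. Without the third EtOH pool before PHx the values across the sets were 0.24 to 0.57, with 0.57 and 0.32 for these seed mates, whereas those within the sets were 0.84 and 0.86 to 0.88. These are descriptions over arrays that share pools, animals and scaling, and without scaling the correlations between the sets were 0.65 to 0.90.

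The sets differed in how much of this was left within groups. With the means of the 4 groups (diet, before or after PHx) removed, miR-99b and miR-125a-5p still had an r of 0.87, while the chromosome 8 and 11 members fell to 0.29 to 0.59. Within the 8 CHO arrays the values were 0.91 for the chromosome 1 pair and 0.63 to 0.76 for the others. Within the 7 EtOH arrays they were 0.89 and 0.10 to 0.55. The covariation of miR-99b and miR-125a-5p was smaller on other scales, at 0.43 after quantile normalization and 0.49 in the authors' deposited values, whereas that of the other 3 stayed at 0.67 to 0.84 and 0.80 to 0.81.

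Let-7e, which lies between Mir99b and Mir125a, had an r of 0.86 with miR-99b and 0.87 with miR-125a-5p. Among the 129 tested miRNAs outside the members it ranked 2 and 1 in likeness to them. Let-7c, of the chromosome 11 cluster, had an r of 0.54 with miR-99a and 0.55 with miR-125b-5p (ranks 17 and 12). Let-7a, of the chromosome 8 cluster, had 0.18 with miR-100 and 0.33 with miR-125b-5p (ranks 53 and 35). The let-7a and let-7c values changed with 1 array and with the group means. Without the third EtOH pool before PHx, let-7c had an r of 0.22 with miR-99a and 0.42 with miR-125b-5p, but 0.68 with miR-99b and 0.72 with miR-125a-5p, and let-7a had 0.06 with miR-100 and 0.14 with miR-125b-5p. Let-7e kept 0.83 and 0.88 with its cluster mates there, and also had 0.54 to 0.72 with the other members. With the group means removed from all 15 arrays, miR-125b-5p had an r of 0.84 with let-7a and 0.76 with let-7c. Let-7a and let-7c each have a further gene outside these clusters, and the array measures the sum. Of the 3 let-7 partners, 0 passed for diet before PHx, with differences of -0.21 for let-7c, -0.13 for let-7e and -0.10 for let-7a in limma. In scaled signal, let-7e averaged 84.8 ± 13.9 (SD, n = 3) in EtOH pools and 92.4 ± 8.87 (SD, n = 4) in CHO pools.

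**Figure D4:**
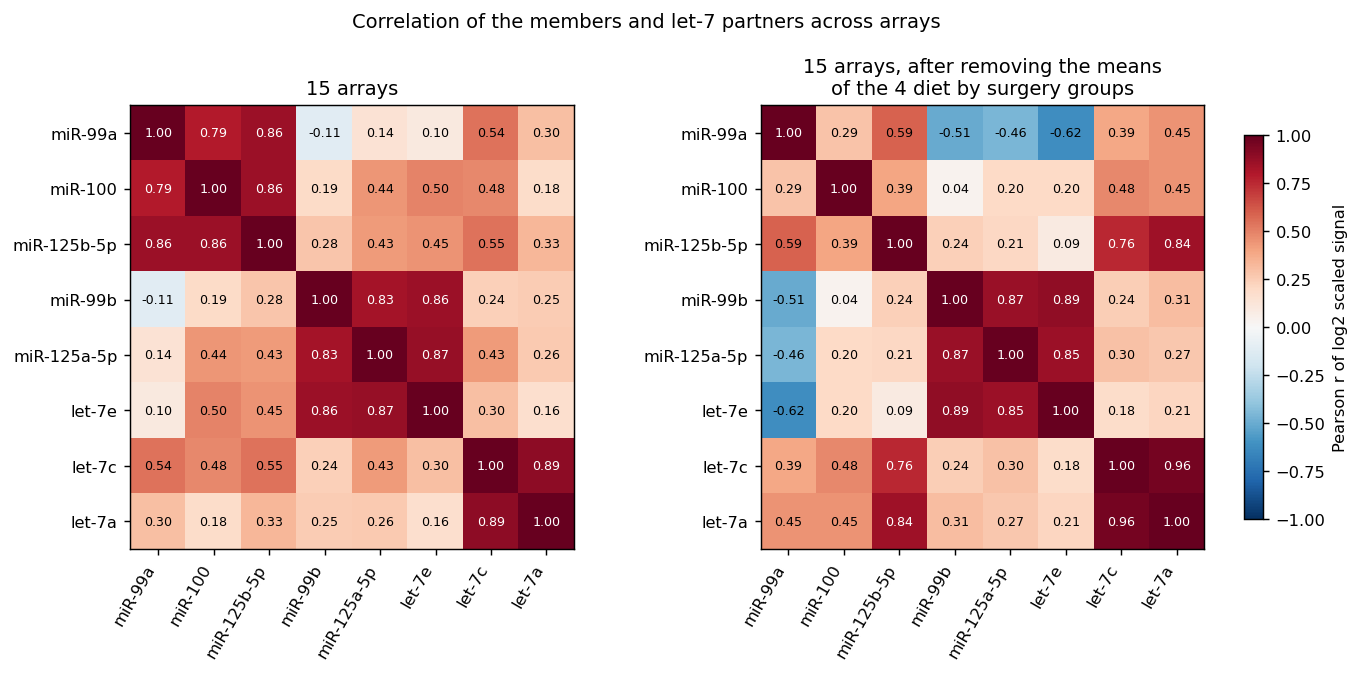
Pearson r of log2 scaled signal between the 5 guide strands and their let-7 partners across 15 arrays, as measured (left) and after removing the means of the 4 diet by surgery groups (right); red is positive and blue is negative. MiR-99b, miR-125a-5p and let-7e form a block in both panels, while miR-100, miR-125b-5p and miR-99a form one only on the left. MiR-99b lay close to the floor and was detected on 11 of 15 arrays.

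Among tested miRNAs that are not members, those whose pattern over the 15 arrays was most like that of each member were found by Pearson r. For miR-99a these were miR-26b (0.93), miR-322 (0.81) and miR-26a (0.75), and for miR-125b-5p they were miR-26a (0.90), miR-26b (0.80) and miR-150 (0.79). For miR-100 they were miR-322 (0.74), miR-26b (0.71) and miR-150 (0.68). MiR-26b is on the list of all 3 of these members. For miR-99b they were miR-23a (0.88), let-7e (0.86) and miR-181a (0.79), and for miR-125a-5p they were let-7e (0.87), miR-181a (0.80) and miR-23a (0.76), the same 3 names in another order. The median r of a member with all tested miRNAs outside the members was between 0.05 and 0.17. Of the names alike to the chromosome 8 and 11 members, miR-322 was lower in EtOH before PHx at -0.53 (limma with Benjamini-Hochberg adjusted p = 0.00484). It stood at 0.18 with the planned normexp, which fitted poorly on the third EtOH pool before PHx. With normexp and 1 background value per array it stood at -0.03, and it passed under neither. MiR-26a (-0.20), miR-26b (-0.29) and miR-150 (-0.38) did not pass.

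Array brightness moved with some of these values. Over the 15 arrays the r between a member's scaled level and the array's log2 percentile before scaling was 0.67 for miR-99a, 0.45 for miR-100, 0.42 for miR-125b-5p, 0.05 for miR-125a-5p and -0.35 for miR-99b. When the third EtOH pool before PHx was left out, these were 0.39, 0.41, 0.22, 0.29 and -0.10 in the same order. Before PHx the percentiles were 236.5 to 410.5 in EtOH and 397.3 to 515.5 in CHO. The EtOH arrays were thus mostly the dimmer ones, but the second EtOH pool (410.5) was brighter than the third CHO pool (397.3). After PHx the percentiles were 339.9 to 454.6 in EtOH and 343.9 to 459.8 in CHO, nearly the same range. There too miR-100, miR-125b-5p and miR-99a lay lower on all EtOH arrays in the scaling used. The part of brightness in the difference before PHx was not tested.

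The miR-10 family resembles miR-100 in sequence, and miR-351 has the seed of the miR-125 family, so their values were read beside those of the members. Printed with the seed in capitals, miR-10a-5p lies at chr10:81779730-81779752 and is identical to miR-100-5p at 20 of 23 alignment columns.
miR-10a-5p: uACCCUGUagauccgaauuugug
Before PHx miR-10a-5p averaged 117 ± 4.60 (SD, n = 3) in EtOH pools and 148 ± 4.38 (SD, n = 4) in CHO pools, in scaled signal. It was lower by 0.33 on the log2 scale in EtOH (SE 0.0783, limma with Benjamini-Hochberg adjusted p = 0.0152). It stood at 0.011 with the planned normexp and at -0.09 with normexp and 1 background value per array, and passed under neither. After PHx its difference was -0.22 (adjusted p = 0.0680, the same test), and its r with miR-100, miR-125b-5p and miR-99a over the 15 arrays was 0.65, 0.67 and 0.71. MiR-10b, at -0.30 before PHx, did not pass (adjusted p = 0.0937, the same test). MiR-351 was detected on 0 of 15 arrays and was not tested.

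The opposite strands were near or below detection almost everywhere. MiR-99a* and miR-125b-3p were each detected on 1 array, miR-99b* and miR-125b* on 0, and miR-100* is not on the array. MiR-125a-3p was the exception, detected on 14 of 15 arrays. Its log2 level was 8.94 on the CHO 12 h array and 3.39 to 4.69 on the other arrays, so its diet difference after PHx of -1.51 (limma with Benjamini-Hochberg adjusted p = 0.157) rests on that array. MiR-125b-3p was detected on the same array, with a log2 level of 7.73. The guide strands of these hairpins did not stand out there, with 5.89 for miR-125a-5p and 9.62 for miR-125b-5p, both within the range of the other CHO arrays.

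Since miR-100, miR-125b and miR-99a mark mesenchymal cells, the other mesenchymal and stellate miRNAs were read beside them. Of 8 such miRNAs (miR-199a-3p, miR-199a-5p, miR-214, miR-143, miR-145, miR-140, miR-152 and miR-10b), all were tested. For diet before PHx, 0 were called lower and 1, miR-152, was called higher at 0.36 (limma with Benjamini-Hochberg adjusted p = 0.0147) and at -0.17 without scaling of the arrays. Their median difference was -0.23, against -0.08 over all tested miRNAs, and 6 of the 8 were below 0, with miR-199a-3p at -0.47 and miR-143 at -0.24. Their summed scaled signal was 674 to 754 in EtOH and 755 to 806 in CHO before PHx, which only just did not overlap. The endothelial, leukocyte and epithelial sums given below did not overlap there either, with EtOH lower. Nor did 21.6% of the single tested miRNAs. After PHx the mesenchymal sum was 658 to 867 and 707 to 824, which overlapped, while the 3 called members still separated there in the scaling used. Across the 15 arrays the r between a member and these markers ran from -0.78 to 0.64, with a median over the 8 markers from 0.23 for miR-125b-5p to 0.46 for miR-125a-5p. The part of mesenchymal cells in the diet difference of the members was not tested.

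Markers of other liver cells were read in the same way before PHx, where 15.7% of all tested miRNAs were called and 12.7% were called lower. The endothelial miR-126 and miR-126* summed to 1064 to 1133 in EtOH and 1210 to 1300 in CHO in scaled signal, with 0 of 2 called. The leukocyte list summed to 299 to 315 in EtOH and 327 to 371 in CHO, with 1 of 4 tested members, miR-142-3p (-0.50), called lower, although it stood at 0.14 when the background was corrected by normexp with 1 value per array. In the epithelial list, miR-200a (-0.45) and miR-200b (-0.57) were called lower, 2 of 3 tested, but under that setting stood at 0.19 and 0.10, and the sums were 52.4 to 60.6 against 72.2 to 88.1. The hepatocyte miR-122, miR-192 and miR-194 summed to 35965 to 41952 in EtOH and 36154 to 42878 in CHO, with 0 of 3 called. The erythroid miR-451 and miR-144 overlapped between the diets, at 629 to 898 and 618 to 1230, with 0 of 2 called. After PHx the diets overlapped in the endothelial, leukocyte, epithelial and hepatocyte sums, whereas the erythroid sum was 873 to 1210 in EtOH and 355 to 847 in CHO. Calls here are those of limma with Benjamini-Hochberg adjustment, and the part of these cells in the members' values was not tested.

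How far the calls depend on the scaling was followed for miR-100, miR-125b-5p and miR-99a before PHx. All 3 were below 0 under each setting tried, from -0.04 for miR-100 to -0.97 for miR-99a. With the 75th percentile taken over all probes, the values were -0.33, -0.33 and -0.38, and none passed (adjusted p = 0.242 for each in limma with Benjamini-Hochberg adjustment). Without any scaling they were -0.92, -0.92 and -0.97, with the median of all tested miRNAs at -0.53. Scaling to a percentile moves all log2 signals of an array that lie above the floor by the same amount. The gap of these members to the median is therefore largely fixed under any such scaling, and is no separate test. In the authors' deposited values miR-125b-5p passed (-0.35) and miR-99a (-0.37) and miR-100 (-0.28) did not. Within the slide that holds the first and second EtOH pools the values were -0.23, -0.26 and -0.28, and miR-99a passed. Within the other slide, where the third EtOH pool is the only EtOH array before PHx, they were -0.55, -0.60 and -0.74, and none passed. After PHx, the 75th percentile over all probes moved the median of all tested miRNAs to 0.19. There miR-100, miR-125b-5p and miR-99a were -0.22, -0.18 and -0.17 relative to that median.

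**Figure D5:**
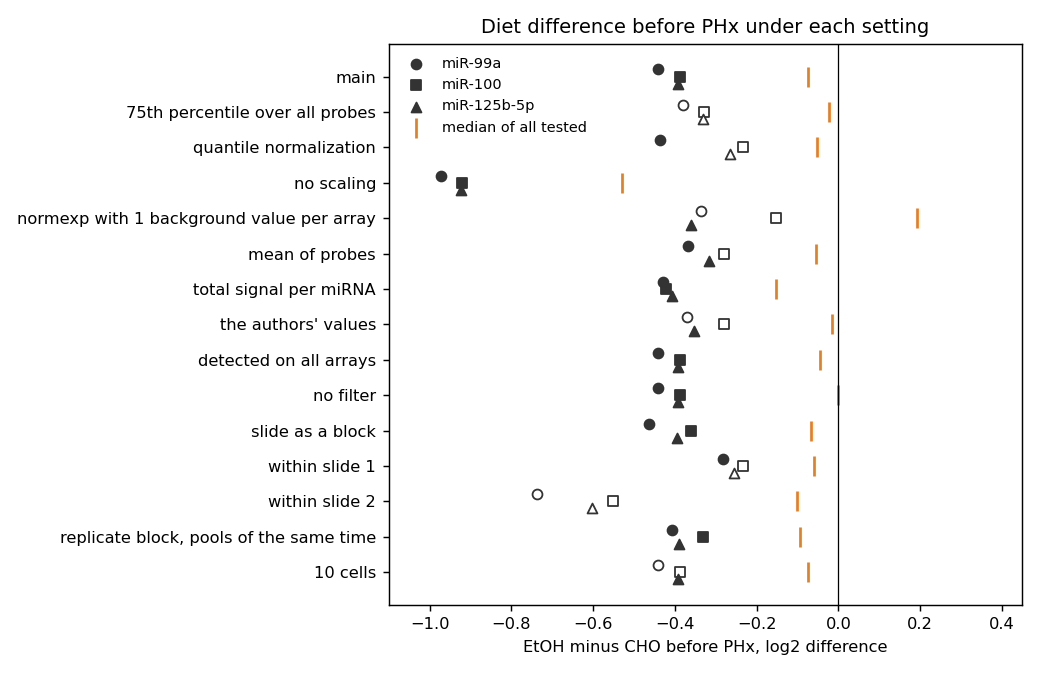
EtOH minus CHO log2 difference before PHx of miR-99a (circles), miR-100 (squares) and miR-125b-5p (triangles) under the processing settings drawn. Filled marks had an adjusted p under 0.05 in limma, and the orange bar is the median of all tested miRNAs. The planned normexp, under which none of them passed, is not drawn, nor are the fits that left out 1 array. All marks lie below 0 and below the orange bar of their setting, and 8 of the settings drawn have at least 1 open mark.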

How the data were processed

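The deposited scanner files hold spot intensity on a linear scale, with local background subtracted by Agilent Feature Extraction. Per the file headers its version was 10.5.1.1, whereas the submitters' processing notes name 10.7.3.1. The authors' deposited table holds log2 values, 1 per miRNA; how they were scaled and centred is not given in the sources used. Its columns have medians from 0.106 to 1.10, and it served as an alternative.

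Control spots and the 2503 spots flagged as outliers (2.38%) were dropped, but not 1 saturated spot. For each probe the processed signals of its spots were averaged. Arrays were scaled to a common 75th percentile, taken over the 185 probes detected on every array (at least a share of 0.5 of the spots well above background). Values were floored at 9.61, and log2 was taken. The brightest of the probes stood for each miRNA. Of 350 miRNAs, 134 detected on at least 3 arrays were tested and 216 were not.

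Limma 3.58.1 in R 4.3.3 was fitted on 15 arrays. Its terms were the diet difference before surgery, that after surgery, and each of the times, which leaves 8 residual degrees of freedom. P-values were adjusted over the 134 by the Benjamini-Hochberg method, with a threshold of 0.05. Replicate numbers follow deposit order. The pairing of 7 pools before and after PHx comes from the labels' animal identifiers; the EtOH pools of 1 h and 6 h share 1 animal, as do those of CHO. P-values measure the spread between arrays, which the main fit takes as independent. As 7 of the 8 pools enter it both before and after PHx, this spread mixes different pools with repeat arrays of the same animals. At single times no diet has a replicate, so spread between pools and a diet difference that changes with time cannot be told apart. An EtOH array before PHx for the 24 h pool was not analysed here. The script was tested on simulated data. The scanner files hold no mean signal, so the normexp alternative used the median signal and median background.

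The members and lists were chosen with earlier results of these data known. The miRNAs named are the members, their cluster partners, opposite strands, relatives, marker lists and, for each member, the 3 tested miRNAs with the highest Pearson r over the 15 arrays. Sequences and gene positions are from RefSeq tables of GRCr8.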

Additional observations from a re-analysis of the deposited data

How the results depend on the processing

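The 3 calls for diet before PHx were the result that depended most on the processing. The number of members called there was 0 when the 75th percentile was over all probes, 1 with quantile normalization, 0 with normexp, 1 with normexp and 1 background value per array (chosen after seeing the data), 1 with the authors' deposited values, 1 within slide 1, 0 within slide 2 and 1 when each of the 10 combinations of diet and time had its own mean. Without scaling, where the median of all tested miRNAs also moved well below 0, it was 4, with miR-125a-5p added. The share of all tested miRNAs called is not set beside these counts or those below. The counts can therefore not be read as particular to the members. Leaving out each array in turn left 2 to 3 of them called, and the 2 came without the first EtOH pool before PHx. For diet after PHx the number rose from 0 to 2 with the mean of probes and to 3 with the total signal per miRNA. Leaving out each array gave 0 to 3, and the 3 came without the third EtOH pool before PHx. At 24 h it rose from 0 to 1 with no filter on low signals, and leaving out each array gave 0 to 1, the 1 again without that pool. Within a slide fewer arrays enter the fit; otherwise the cause was not tested. With the pool of the same animals as a replicate block 0 members were called at each time, and with a replicate block for the pools of the same time the counts of members called were 3 before and 0 after PHx, as without a block. The planned normexp could not be fitted well on the third EtOH pool before PHx and the CHO 24 h array, where the SD of its log2 values was 0.734 and 0.377 against 1.15 to 1.38 on the others. MiR-99b has no value where detection on all arrays was required. Of 1202 values of single members under alternatives, 1095 kept their side of the threshold and, where the sign changed, moved by less than 1 SE of the fit; no called value changed sign, and 141 values that were not called did. Of 242 counts of members called, 229 were within 1.5 times the main count. Depth in the sense of signal over background limits miR-99b, whose values lay between 3.26 and 3.85.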

Other observations

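Changes within 1 diet were read from a fit with a mean for each of the 10 combinations of diet and time, which takes the single pools after PHx to be as variable as the pools before it. There miR-125b-5p differed over the times from before PHx by -0.19 within CHO (limma with Benjamini-Hochberg adjusted p = 0.298, unadjusted p = 0.0458), and no other member had an unadjusted p under 0.05 for its change within a diet.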
